A study of Mus musculus with 2 samples.

Results

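The VEGF family and angiogenic factors of muscle were followed through 10 listed genes, chosen by name as ligands and receptors of blood vessel growth, out of 18744 named genes on the array. They are the ligands Vegfa, Vegfb, Vegfc and Pgf, the receptor genes Flt1 and Kdr, the coreceptor genes Nrp1 and Nrp2, and the growth factor genes Angpt1 and Hgf. Each was read by 1 probe set that names no other gene. The samples were C2C12 cells, an established mouse myoblast line, kept in medium with 10% fetal bovine serum, taken to confluence and then held for 7 days in 2% horse serum so that myotubes formed. One culture received Ad-caERα, an adenovirus for a constitutively active estrogen receptor α, and the control culture received Ad-DsRed, an adenovirus for the red fluorescent protein DsRed. Both were infected at a multiplicity of infection of 30 for 48 h, so adenoviral infection, dose and time are common to both groups. There was 1 array per vector, and no value below has a replicate check.

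Of the 10 genes, 8 gave a signal above the detection floor, beside 13554 of all 18744 named genes. Between the vectors, 0 of the 10 differed by 2-fold or more. Vegfa and Vegfb were slightly higher with the active receptor, while the other 6 measured members were lower, Angpt1 by the widest margin at 1.41-fold. Both signalling receptor genes, Flt1 and Kdr, lay below the floor on both arrays. The count of 0 stands beside 0.686% of all 13554 measured genes past 2-fold in either direction, a share at which a list of this size holds few or no such genes, so the count is no result about angiogenic factors.

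VEGF ligands are secreted dimers that bind receptor tyrosine kinases on endothelial cells and drive the sprouting and survival of blood vessels. Muscle fibres are a major source of VEGF-A, which couples the capillary supply to exercise and to low oxygen. VEGF-A signals mainly through KDR, also called VEGFR2, while FLT1 (VEGFR1) binds VEGF-A, VEGF-B and placental growth factor and can act as a decoy. Neuropilins are coreceptors without a kinase that bind both VEGFs and class 3 semaphorins. Angiopoietin 1 steadies vessels through the receptor TEK, and hepatocyte growth factor, through the receptor MET, acts both on vessels and on muscle satellite cells. VEGF-A transcription is known to respond to hypoxia-inducible factors, to GC box binding proteins of the Sp family and to nuclear receptors, estrogen receptor α among them.

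Because the introduced factor is a transcription factor, sequence just before the annotated transcription start is shown for the 2 measured members that were higher (Vegfa and Vegfb) and for Nrp1 and Hgf among the lower ones. Each window holds the 250 bases before the first annotated start of the gene, read 5′ to 3′ on the gene's own strand, from RefSeq on GRCm38.p6. Capitals mark the searched letters on either strand: GGTCA, a single arm of the estrogen response element, the core ACGTG of hypoxia response elements and the GC box GGGCGG. The windows of Nrp1 and Hgf hold GGTCA, whereas those of Nrp2 and Vegfc, also lower, do not. The printed windows therefore do not stand for the whole list.
Vegfa (minus strand, chr17:46032378-46032627): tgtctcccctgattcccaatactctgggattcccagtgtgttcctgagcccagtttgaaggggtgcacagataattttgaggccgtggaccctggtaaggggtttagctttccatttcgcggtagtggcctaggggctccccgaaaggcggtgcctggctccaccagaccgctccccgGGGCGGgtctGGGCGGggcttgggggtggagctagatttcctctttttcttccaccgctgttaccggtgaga
Vegfb (minus strand, chr19:6987652-6987901): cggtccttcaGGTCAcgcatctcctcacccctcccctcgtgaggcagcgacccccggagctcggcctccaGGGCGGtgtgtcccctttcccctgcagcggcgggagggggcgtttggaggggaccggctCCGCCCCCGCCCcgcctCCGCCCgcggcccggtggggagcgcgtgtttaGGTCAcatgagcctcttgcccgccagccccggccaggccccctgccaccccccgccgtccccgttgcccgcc
Nrp1 (plus strand, chr8:128358823-128359072): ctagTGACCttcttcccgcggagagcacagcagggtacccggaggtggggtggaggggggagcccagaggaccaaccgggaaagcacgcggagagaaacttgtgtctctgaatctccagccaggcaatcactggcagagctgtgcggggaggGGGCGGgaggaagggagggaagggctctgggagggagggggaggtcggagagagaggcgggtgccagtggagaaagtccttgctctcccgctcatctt
Hgf (plus strand, chr5:16553245-16553494): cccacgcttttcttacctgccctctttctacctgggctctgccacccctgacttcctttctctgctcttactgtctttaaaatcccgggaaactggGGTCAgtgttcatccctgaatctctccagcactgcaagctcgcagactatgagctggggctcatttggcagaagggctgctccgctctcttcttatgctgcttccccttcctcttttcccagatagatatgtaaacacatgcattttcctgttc

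The sequence table held 12 windows for 9 of the 10 genes, all but Angpt1. The palindromic estrogen response element, in which GGTCA and TGACC stand 3 bases apart, was found in 0 of the 12 windows and in 0.0639% of the 32851 windows of all genes. The single arm GGTCA, which is also part of the palindrome, was in 5 of the 12 windows, those of Hgf, Kdr, Nrp1, Pgf and Vegfb, against 35.2% of all windows. The arms of Vegfb began 240 and 72 bases before the start, that of Hgf 154 bases and that of Nrp1 246 bases before it. GC boxes were more widespread, in 9 of the 12 windows against 32.7% of all, and Vegfb held 4 of them, some in direct contact. In the Vegfa window the GC boxes began 72 and 62 bases before the start, close to each other. The hypoxia core was found in 1 window, that of a second, more internal start of Vegfa, against 16.6% of all windows. The windows ran from 50.8% to 76.4% G and C, where the median over all windows was 52.4%, and GC boxes follow base composition. A match describes letters in this window only.

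The deposited values are log2 signals, and each difference is Ad-caERα minus Ad-DsRed, so positive values mean a higher signal with the active receptor. The detection floor, a log2 signal of 5.11, is the 95th percentile of the brighter signal over 1210 probe sets for odorant and pheromone receptors (olfactory and vomeronasal genes), taken as silent in muscle cells. The median probe set was at 6.05 with Ad-DsRed and 6.02 with Ad-caERα. Over the measured genes the median difference was 0.0017, the median absolute difference 0.14 and its 95th percentile 0.47. As a yardstick of spread, differences had an SD of 0.22 among those silent probe sets. In the 770 measured genes with several probe sets, the SD within a gene was 0.13. As a check of the labels, Esr1, which encodes estrogen receptor α, was at 7.38 with Ad-DsRed and 8.44 with Ad-caERα, a 2.08-fold difference. Signals of different probe sets are not compared with each other, since each has its own brightness.

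Vegfa, the main angiogenic ligand, had a log2 signal of 10.14 with Ad-DsRed and 10.32 with Ad-caERα. The difference was 0.18, or 1.13-fold higher with the active receptor. Differences at least that wide, in either direction, were found in 39.6% of the measured genes, and the value was smaller than the SD among the silent probe sets. The probe set lists 9 RefSeq messenger RNAs of Vegfa, so it reads their sum and cannot tell the splice forms with and without heparin binding apart. Vegfb, a ligand of FLT1 that is abundant in oxidative tissue and linked to endothelial fatty acid uptake, was at 9.27 with Ad-DsRed and 9.38 with Ad-caERα. Its difference of 0.11 was matched or passed in size by 57.7% of measured genes.

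Vegfc, the growth factor of lymphatic vessels, was at 5.47 with Ad-DsRed and 5.26 with Ad-caERα, a difference of -0.21. Both signals were close to the floor, 0.36 and 0.15 above it on the log2 scale. The 2269 measured genes near its level had a central 95% of differences from -0.53 to 0.48, which holds the value. Pgf, placental growth factor, which binds FLT1 and not KDR, was at 6.88 with Ad-DsRed and 6.82 with Ad-caERα. Its difference of -0.065 was the smallest in size of the 8 measured members, and 74.7% of measured genes differed at least as much. Of the 4 measured ligands of VEGF receptors, 2 lay above 0 and 2 below, beside 50.2% of all measured genes above 0. None reached 1.5-fold, a size that 2.71% of measured genes reached.

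**Figure D1:**
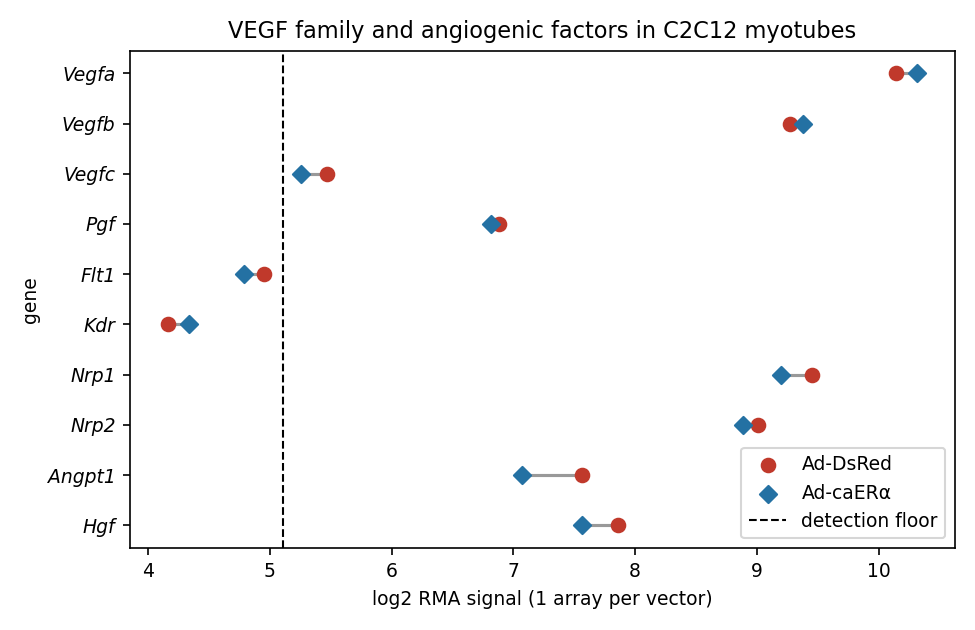
Log2 RMA signal of the 10 genes (vertical axis) on the Ad-DsRed array (circles) and the Ad-caERα array (diamonds), with a grey line joining the values of a gene and a dashed line at the detection floor of 5.11. Flt1 and Kdr lie left of the floor on both arrays, and Angpt1 has the longest line, from 7.56 to 7.07.

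Flt1, which encodes VEGFR1, was at 4.95 with Ad-DsRed and 4.79 with Ad-caERα, and Kdr, which encodes VEGFR2, at 4.16 and 4.34. All 4 signals were below the floor, so neither gene is given a fold or a direction. Both receptors are characteristic of endothelial cells, and the endothelial markers were dim in these cultures as well. Where 13554 of all 18744 named genes were above the floor, 8 of 16 such markers were below it, among them Cdh5, Pecam1, Emcn and Sox17. The other 8 were above it on at least 1 array, with Tek at 6.73 with Ad-DsRed and 6.60 with Ad-caERα. Over all 16, the log2 signals ran from 3.87 to 6.73 with Ad-DsRed and from 3.71 to 6.60 with Ad-caERα. Their summed linear signal was 631 with Ad-DsRed and 579 with Ad-caERα. That sum includes the 8 markers below the floor, so it is not read as a difference in endothelial RNA. The 8 measured markers had a median difference of -0.13, with 0 past 2-fold beside 0.686% of all measured genes. Of them 2 were above 0 and 6 below, beside 48.8% of all measured genes below 0. Plvap was lowest (-0.43), while Eng (0.045) and Cldn5 (0.034) were highest. Robo4 was above the floor with Ad-DsRed only, and is given as at least 1.06-fold lower. The cultures are described as a myoblast line alone, so these dim signals are not read as an amount of endothelial cells. A link between them and the differences of the members was not tested. Between bulk cultures, fewer cells of a type and less RNA per cell cannot be told apart.

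The coreceptor genes, in contrast, were well above the floor. Nrp1, a coreceptor of VEGF-A and of semaphorin 3A, was at 9.46 with Ad-DsRed and 9.20 with Ad-caERα. The difference was -0.26, or 1.19-fold lower, and 22.8% of measured genes differed at least as much in size. Nrp2, a coreceptor of VEGF-C and of semaphorin 3F whose probe set covers 6 RefSeq messenger RNAs, was at 9.01 with Ad-DsRed and 8.88 with Ad-caERα. Its difference of -0.13 was passed or matched by 52.8% of measured genes. Both coreceptors therefore lay below 0, by less than 1.5-fold.

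Angpt1, the agonist of the TEK receptor, showed the widest difference of the 10 genes. It was at 7.56 with Ad-DsRed and 7.07 with Ad-caERα, a difference of -0.49, or 1.41-fold lower. Only 1.62% of measured genes had a lower difference, and 4.29% differed at least as much in either direction. Among the 1928 measured genes within 0.5 of its mean log2 signal, the central 95% of differences ran from -0.42 to 0.63, so Angpt1 lay below that range. It was the only member of the 8 outside the range of genes near its own level. Each such range is set to hold 95% of those genes, so a list of any kind can have a gene outside it. It stayed short of 1.5-fold, a size that 2.71% of measured genes reached.

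Hgf, the ligand of MET and a signal that activates satellite cells after muscle injury, was at 7.86 with Ad-DsRed and 7.56 with Ad-caERα. The difference was -0.30, or 1.23-fold lower, and 17.1% of measured genes differed at least as much. The 2191 genes near its level had a central 95% from -0.43 to 0.53, which holds the value. Angpt1 and Hgf, the growth factors outside the VEGF family, were thus both lower.

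The 8 measured members together ran from -0.49 to 0.18 with a median of -0.17, against 0.0017 over all measured genes. Over all 10, with the dim receptors kept in, the median was -0.15. Of the 8, 6 lay below 0, beside 48.8% of all measured genes. For 5 of them (Vegfa, Vegfb, Vegfc, Pgf and Nrp2) the difference was smaller than the SD of 0.22 among silent probe sets, and for Nrp1, Hgf and Angpt1 it was larger. Those probe sets are dim, so that SD is not matched in level to the brighter members. Over all measured genes the SD was wider, at 0.27, and Nrp1 (-0.26) did not reach it. Nrp1 also lay inside the central 95% of genes near its level, from -0.38 to 0.47. With 1 array per vector it is unknown whether a second pair of cultures would give the same order.

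**Figure D2:**
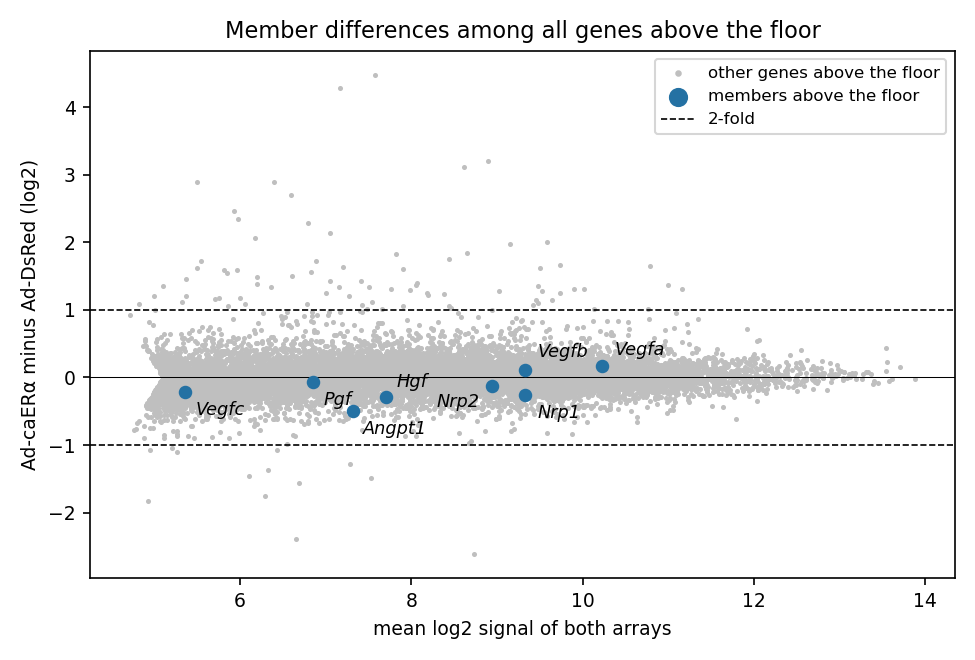
Difference between vectors (Ad-caERα minus Ad-DsRed, log2) against the mean log2 signal of both arrays for the 13554 measured genes (grey) and the 8 measured members (blue), with dashed lines at 2-fold. All 8 members lie inside the dashed lines, with Angpt1 lowest at -0.49 and Vegfa highest at 0.18.

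Other members of the same ligand and receptor families differed in both directions. Of 10 listed genes 9 were on the array under a single name and 6 were measured. Of these, 2 lay above 0 and 4 below, beside 48.8% of all measured genes below 0. The median difference was -0.21, with 0 past 2-fold beside 0.686% of all measured genes. Angptl4, an inhibitor of lipoprotein lipase, was at 8.83 with Ad-DsRed and 8.39 with Ad-caERα (-0.44), and Angpt2, the context-dependent antagonist of TEK, at 5.74 and 5.40 (-0.34). Angpt4, another TEK ligand, was the highest, at 7.77 and 8.10 (0.33), followed by Angptl6 (0.10). Tek itself had a difference of -0.13, and Flt4, the receptor of VEGF-C, was below the floor.

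Among semaphorins and plexins, which share the neuropilins, 0 of 13 genes passed 2-fold, beside 0.686% of all measured genes. Their median difference was -0.18, with 11 of the 13 below 0 beside 48.8% of all measured genes. Sema3d was at 8.11 with Ad-DsRed and 7.48 with Ad-caERα (-0.63), and Sema3c at 11.27 and 10.78 (-0.49). Sema3b (0.26) and Gipc1 (0.039), an adaptor of the neuropilin tail, were the 2 above 0. The neuropilin differences of -0.26 and -0.13 thus stood within the range of this group.

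In the list of HGF activation and Met signalling, 8 of 13 measured genes were below 0, beside the same 48.8%, and the median was -0.11. Past 2-fold were 0 of them, beside 0.686% of all measured genes. Met, the receptor of HGF, was at 9.87 with Ad-DsRed and 9.29 with Ad-caERα, a difference of -0.57, so ligand and receptor genes were both lower. Hpn, a protease that activates HGF, was at 5.18 with Ad-DsRed and below the floor with Ad-caERα, at least 1.05-fold lower. Highest were Spint1 (0.38), an inhibitor of HGF activation, and Hgfac (0.22), the HGF activator protease. The downstream list of VEGF receptor signalling had 11 of 22 measured genes on each side of 0, beside 50.2% of all measured genes above 0. Its median was -0.0049. Its lowest genes were the docking protein gene Gab1 (-0.32), also in the Met list, and Cav1 (-0.30), and its highest were Mapkapk2 (0.24) and Map2k2 (0.23). Of the 29 genes of that list, 6 have no probe set under a single name and were not analysed here.

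The hypoxia-induced genes, to which Vegfa itself belongs, had a median difference of 0.25, with 0 past 2-fold beside 0.686% of all measured genes. Of the 26 measured, 23 were above 0, beside 50.2% of all measured genes. Pdk1, a kinase that holds back pyruvate dehydrogenase, was at 8.42 with Ad-DsRed and 9.10 with Ad-caERα (0.69), and Car9, a carbonic anhydrase, at 5.46 and 6.11 (0.65). The lowest were Kdm3a (-0.11), a histone demethylase, and Lox (-0.095), the collagen cross-linking oxidase. Vegfa, at 0.18, had a smaller difference than the median of that list. For the oxygen-sensing machinery, 7 of 16 measured genes were above 0, beside 50.2% of all measured genes, and the median was -0.016. Elob (0.23) and Vhl (0.22), parts of the ligase that marks HIF for degradation, were highest, and Epas1 (-0.30), which encodes HIF-2α, and the coactivator gene Ep300 (-0.24) were lowest. Hif1a was at 11.12 with Ad-DsRed and 11.29 with Ad-caERα (0.16).

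Among 14 measured transcriptional regulators of Vegfa, 10 were below 0, beside 48.8% of all measured genes, and the median was -0.11. Esr1 was the 1 gene past 2-fold there, beside 0.59% of measured genes that far higher. The vector carries the gene of this receptor, so that count is no result about regulators of Vegfa. Whether the probe set reads the vector's transcript, the cells' own or both was not tested. Ets2, an ETS factor, followed at 9.99 with Ad-DsRed and 10.83 with Ad-caERα (0.84). The lowest were Ppargc1b (-0.53), a coactivator of estrogen-related receptors, and the immediate early factor gene Egr1 (-0.46). Ppargc1a, whose product raises VEGF-A in muscle together with ERRα, was at 5.86 and 5.43 (-0.43), while Esrra, which encodes ERRα, was at 7.72 and 7.88 (0.16).

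Other angiogenic factors and their receptors had 9 of 25 measured genes above 0, beside 50.2% of all measured genes. Their median was -0.049, with 0 past 2-fold beside 0.686% of all measured genes. Apln, the endothelial peptide apelin, was lowest at 6.14 with Ad-DsRed and 5.60 with Ad-caERα (-0.55), whereas its receptor gene Aplnr was at 6.63 and 7.08 (0.45). Fgfr3 was highest (0.51), and Pdgfrb, the receptor of pericytes, was at -0.39.

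In the list of angiogenesis inhibitors 2 of 19 measured genes passed 2-fold on the values as deposited, beside 0.686% of all measured genes, and only Thbs2 did so with both signals above the floor. Thbs2, a thrombospondin that restrains vessel growth, was at 10.32 with Ad-DsRed and 11.68 with Ad-caERα, a 2.58-fold difference. Its relative Thbs1 was at 12.35 and 12.76 (0.41). Cxcl10, an interferon-induced chemokine that limits endothelial growth, was at 5.73 with Ad-DsRed and below the floor with Ad-caERα, so it is given as at least 1.54-fold lower. It passed 2-fold on the values as deposited, beside 0.0959% of measured genes that far lower. With loess, with the 99th percentile floor or with dim values lifted to the floor, 0 genes of the companion lists were 2-fold lower. Vash2 (-0.50), of the vasohibin family though known to promote vessel growth, was next lowest. The list as a whole had 8 of 19 measured genes above 0, beside 50.2% of all measured genes, and a median of -0.057. Its extremes pointed in opposite directions.

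**Figure D3:**
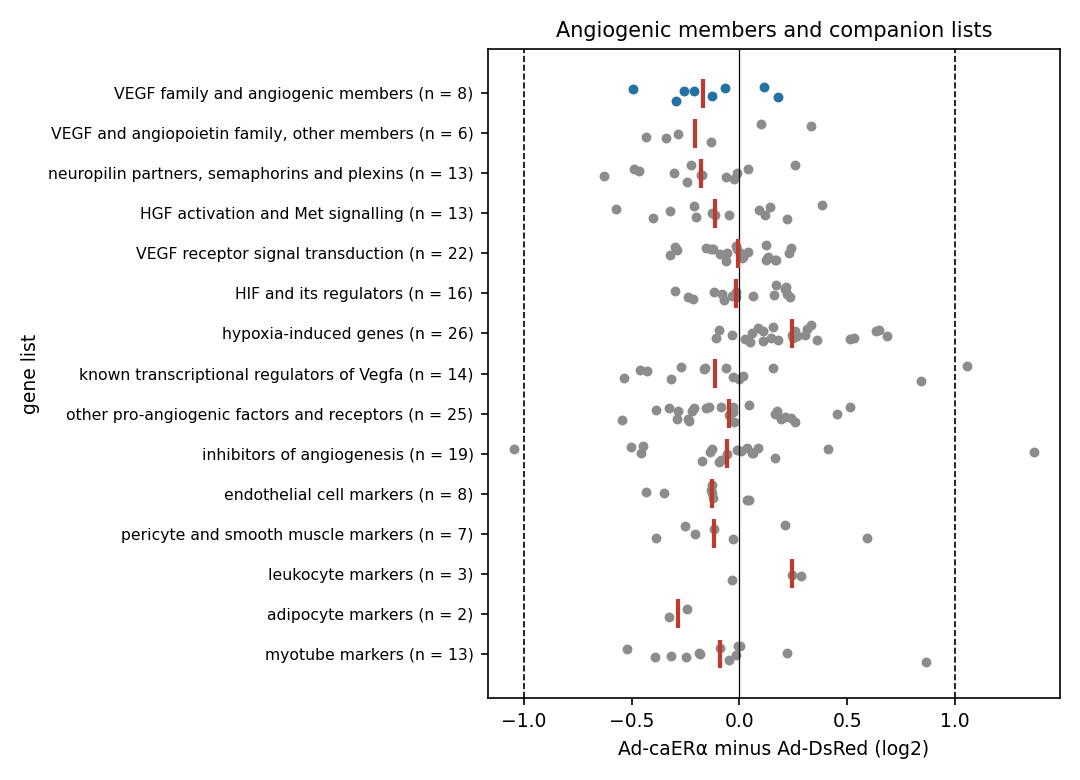
Difference between vectors (Ad-caERα minus Ad-DsRed, log2, horizontal axis) of each measured gene in the angiogenic list (blue) and in 14 companion lists (grey), with a red bar at each list's median, dashed lines at 2-fold and the number of measured genes in brackets. The angiogenic median is -0.17 and the hypoxia-induced median 0.25, and the points past the dashed lines are Esr1, Thbs2 and Cxcl10.

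The cultures carried the markers of their label. All 13 myotube markers were measured, with log2 signals from 8.20 to 12.92 with Ad-DsRed and from 8.18 to 13.00 with Ad-caERα, and their median difference was -0.089. Mb, myoglobin (0.87), and Des, desmin (0.22), were highest, and Atp2a1 (-0.52) and Mef2c (-0.39) lowest. Pericyte and smooth muscle markers, many of which myoblasts also express, had 7 of 8 measured and a median of -0.12, from Pdgfrb (-0.39) and Notch3 (-0.25) up to Tagln (0.59) and Cnn1 (0.21). Leukocyte markers had 3 of 8 measured, Cd14 (0.29), Cd68 (0.25) and Cd3e (-0.033), while Ptprc, Csf1r, Adgre1, Itgam and Lyz2 were below the floor. Adipocyte markers had 2 of 5 measured, Cidec (-0.33) and Plin1 (-0.24), and Adipoq, Fabp4 and Lep were below it. Over the whole array, 13554 of 18744 named genes were measured. No marker in these 4 lists passed 2-fold, beside 0.686% of all measured genes.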

How the data were processed

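Total RNA from 2 cultures of differentiated C2C12 cells was labelled from 150 ng per array. The authors deposited log2 signals per probe set, made with Affymetrix Expression Console and RMA per the submitters' processing notes; for versions, filters and the number of arrays normalized together, the sources used here state nothing. RMA can narrow the fold change of a weak signal, and its quantile step removes any shift in total mRNA. The table held 35556 probe sets, of which the platform annotation named 1 gene for 21789, several for 1621 and none for 12146; 21698 of the single-gene probe sets matched RefSeq GRCm38.p6. Where a gene had several probe sets, the brightest by mean was used. With 1 array per group no test was possible, and the number of arrays limits the precision. Genes were called at 2-fold (1 on the log2 scale). All 10 members are named, plus Esr1 and, in each companion list, genes past 2-fold and up to 2 at each end. Tek, Flt4, Hif1a, Ppargc1a, Esrra and the markers given as below the floor were named for what they encode, after their values were seen. The members and lists were chosen with earlier results of these data known. Linear sums of marker signals are 2 to the power of the log2 signal. The code was tested on simulated data. Python 3.11.15, numpy 2.4.6, pandas 2.3.3, statsmodels 0.14.6 and matplotlib 3.10.9 were used.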

Additional observations from a re-analysis of the deposited data

How the results depend on the processing

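No paired analysis was possible because there was only 1 array per vector. No array could be left out, and the spread between cultures is unknown. The differences of the 10 members were recomputed 60 times, under another floor (the 99th percentile), no floor, values below the floor raised to it, centring, loess and averaged probe sets. None took the opposite sign, but Flt1 and Kdr came to 0 when raised to the floor, the widest move being the 0.18 of Kdr. Some of these settings could not move a member, since each has 1 probe set and a floor changes only which genes count as measured. The members' median lay between -0.17 and -0.13, and 0 members passed 1.5-fold or 3-fold as well. The count over all measured genes followed the threshold, with 247 higher and 120 lower at 1.5-fold and 27 and 4 at 3-fold, in place of 80 and 13. In the companion lists the counts were 8 higher and 2 lower at 1.5-fold and 0 and 0 at 3-fold, in place of 2 and 1. Esr1, which the vector carries, was 1 of the 2 higher genes. The 1 lower gene, Cxcl10, dropped out with the 99th percentile floor, with loess and with values raised to the floor, leaving 0 each time.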
